A study of Homo sapiens with 15 samples.

Results

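CES1, FAM129A, NETO2, AGPAT9 and IL1RAPL1 are 5 of the 19845 gene names in the deposited tables of HCC1954, an established HER2-positive human breast cancer cell line. They were selected on the measured values themselves, for large gains in latent or metachronous brain metastasis cells over synchronous brain metastasis cells, with no numerical threshold, so those differences are given as a description and not as a test. The selection also split them by their level in the parental line, into CES1, FAM129A and NETO2, described as present there and lost in synchronous cells, and AGPAT9 and IL1RAPL1, described as near absent there. AGPAT9 did not match that description, since each parental library held between 89 and 136 of its reads, and the parental and synchronous ranges overlapped.

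RNA was read in 15 libraries: parental HCC1954 cells (Pa, n = 3), brain-tropic cells from synchronous metastases (S-BM, n = 4), brain-tropic latent or residual cells (Lat, n = 4) and brain-tropic cells from metachronous metastases (M-BM, n = 4), where metachronous means appearing after an interval. All 15 libraries came from cells of the same line grown in culture before RNA extraction, and no treatment, allele or host is named in the labels. Nor is it stated if replicate libraries were grown or taken separately, so a p-value here reflects only the spread among these libraries, and that spread may be technical. Values are normalized counts per gene, not divided by gene length, so levels are compared between libraries and never between genes.

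Each of the 5 genes has a known role. CES1 encodes a carboxylesterase of the endoplasmic reticulum, best known from liver, that cleaves ester bonds in drugs and in neutral lipids. FAM129A, now named NIBAN1, is induced by cellular stress and acts on translation control, NETO2 encodes an auxiliary subunit of kainate-type glutamate receptors, AGPAT9, now named GPAT3, adds the first fatty acid to glycerol-3-phosphate on the way to triglycerides, and IL1RAPL1 encodes a member of the interleukin 1 receptor family that serves in neurons as a synaptic adhesion protein.

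On the GRCh38.p14 assembly, RefSeq places CES1 at chr16:55802851-55833096 and NETO2 on the same chromosome at chr16:47077703-47143945. FAM129A lies at chr1:184791032-184974508, AGPAT9 at chr4:83535587-83605875 and IL1RAPL1, the longest of the genes at 1369273 bases, at chrX:28587446-29956718. A window of 250 bases before a listed transcription start was read from the RefSeq promoter table of that build, which matched 4 of the 5 genes and not CES1. The start listed for AGPAT9 lies downstream of the first base of the gene, so its window falls inside the gene, 193 of its bases are exonic in GENCODE 29, and it is not printed. The other windows hold 42 (FAM129A), 52 (NETO2) and 47 (IL1RAPL1) bases that GENCODE 29 places in exons, and the sequences stop before them. The sequences are shown because genes that move together are often compared at their promoters. Each is written 5′ to 3′ on the strand of its gene, and capitals mark GGGCGG, the GC box:
FAM129A: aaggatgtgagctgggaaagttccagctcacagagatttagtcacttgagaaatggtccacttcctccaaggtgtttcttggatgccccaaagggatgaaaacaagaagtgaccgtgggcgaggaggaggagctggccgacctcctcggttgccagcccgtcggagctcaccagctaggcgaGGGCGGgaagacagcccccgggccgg
NETO2: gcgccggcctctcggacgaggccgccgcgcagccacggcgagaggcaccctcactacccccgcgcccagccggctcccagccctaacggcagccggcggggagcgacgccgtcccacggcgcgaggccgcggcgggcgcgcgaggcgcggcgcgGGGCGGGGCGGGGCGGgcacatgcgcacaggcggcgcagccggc
IL1RAPL1: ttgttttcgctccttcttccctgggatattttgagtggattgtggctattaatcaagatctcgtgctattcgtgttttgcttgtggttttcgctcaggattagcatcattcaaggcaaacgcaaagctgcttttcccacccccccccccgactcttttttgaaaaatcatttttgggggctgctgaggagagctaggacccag

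The printed stretch of FAM129A spans chr1:184974551-184974758 on the minus strand, that of NETO2 chr16:47143998-47144195 on the minus strand and that of IL1RAPL1 chrX:28587196-28587398 on the plus strand. The whole windows of 250 bases, AGPAT9 included, were used for composition and motifs. Their base composition differed widely. NETO2 was the richest, with 82.4% G and C and 47 CpG dinucleotides, and IL1RAPL1 the poorest, with 47.6% and 6, against a median of 58.0% G and C over 27303 promoter windows of the same length. FAM129A held 61.2% G and C with 14 CpG dinucleotides, and AGPAT9 62.4% with 18. The ratio of observed to expected CpG was 1.11 for NETO2, 0.772 for AGPAT9, 0.606 for FAM129A and 0.424 for IL1RAPL1, beside a median of 0.556.

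Of 8 motifs searched on both strands, none of which contains the letters of another, GGGCGG was the one found. It lay in the NETO2 window 3 times in overlapping copies, beginning 96, 91 and 86 bases before the start, once in FAM129A 68 bases before it and once in AGPAT9, on the opposite strand, 121 bases before it. This motif occurs in 42.3% of all windows. None of the 4 windows held TATAAA (in 11.1% of all windows), CCAAT (33.0%), the AP-1 motif TGANTCA (6.60%), the CREB motif TGACGTCA (1.77%), the ATF4-type motif TGATGNAA (3.19%), the antioxidant-response motif TGACNNNGC (11.0%) or the E-box CACGTG (6.49%). These matches describe letters in 1 window per gene and do not bear on any factor.

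Across the series, each library held 13.25 to 21.84 M reads assigned to genes, and 3 reads correspond to a value of 0.136 to 0.225, a limit that covers counting error only. S-BM 3 and S-BM 4 stood apart from the other libraries labelled S-BM. They were the closest pair of all, differing by 3.403 times counting noise, while S-BM 2 and S-BM 4 differed by 67.7 times, and their ERBB2 levels were 353 and 367 against 4109 and 4642 in S-BM 1 and S-BM 2. ERBB2, the HER2 gene that defines the line, was at 2801 to 4959 in the libraries of the other groups. The differences of the 5 genes from S-BM are therefore also given without these 2 libraries, which leaves 2 S-BM libraries in the group. For other genes and for counts of calls this is given only where stated. All 8 epithelial and HER2 markers were present in every group. Markers of other cells were low or rested on single genes. The summed level of 8 hepatocyte markers was 3.24 to 6.67 in S-BM, 1.23 to 2.28 in Lat and 1.03 to 4.09 in M-BM, and that of 6 neuronal markers, nearly all of it TUBB3, was 43.9 to 73.2, 32.7 to 41.6 and 31.0 to 38.5. Macrophage markers summed to 2.63 to 13.9 in S-BM, 8.54 to 15.2 in Lat and 6.28 to 11.5 in M-BM, most of it CSF1R. Those of oligodendrocytes summed to 77.6 to 160.9 over the 3 groups, nearly all of it MBP, and those of astrocytes, fibroblasts, endothelium and adipocytes to at most 27.7. ALB, AIF1, SNAP25, GFAP and MOG, a marker each of hepatocytes, macrophages, neurons, astrocytes and oligodendrocytes, were at or near 0, at most 0.171 in any library. Other oligodendrocyte markers were low but differed between groups. OLIG2 was at 0.354 to 1.5 in S-BM, 4.14 to 5.16 in Lat and 2.66 to 5.16 in M-BM. MAG was at 0.989 to 1.65, 4.43 to 5.07 and 2.19 to 6.78 in the same groups, while MBP overlapped between them. In bulk RNA fewer cells expressing a gene and less RNA per cell cannot be told apart.

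**Figure D1:**
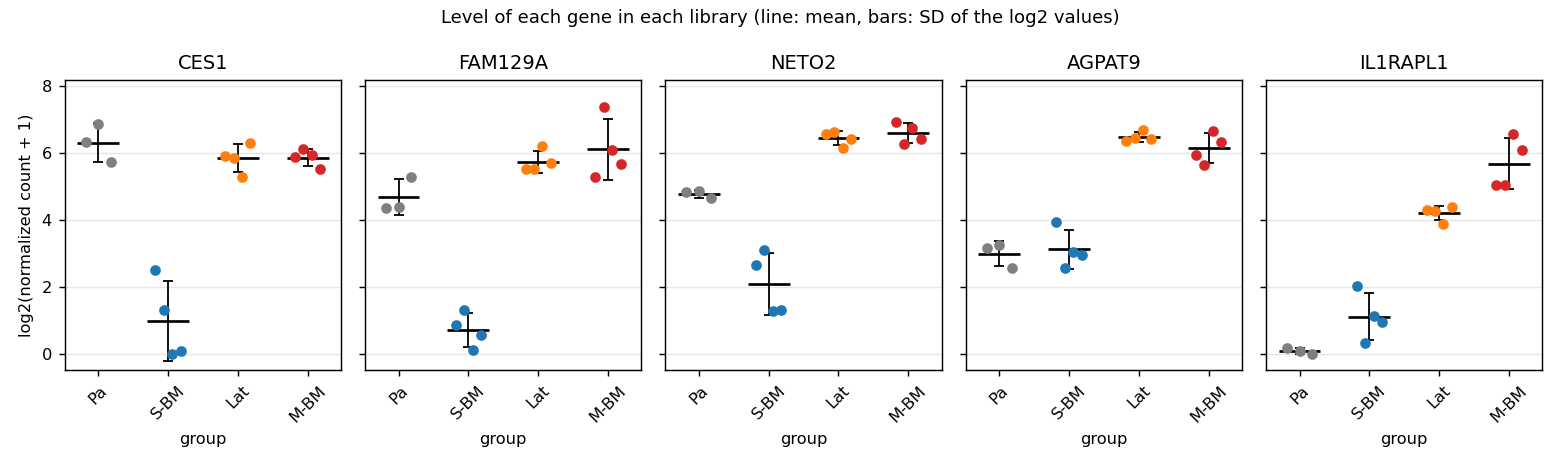
Level of each of the 5 genes in each of the 15 libraries, as log2 of the normalized count plus 1, by group; points are libraries, the line is the group mean and bars are the SD. In each panel the 4 Lat and 4 M-BM points lie above the 4 S-BM points, while Pa lies with Lat and M-BM for CES1, between them and S-BM for FAM129A and NETO2, overlaps S-BM for AGPAT9 and is lowest for IL1RAPL1.

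CES1, the esterase, had its highest mean in the parental line and was low in S-BM, with S-BM 3 and S-BM 4 nearly unread. Its normalized counts were 79.6, 117 and 52.2 in Pa, 4.73, 1.47, 0 and 0.0582 in S-BM, 59.5, 56.8, 38.3 and 78.9 in Lat, and 58.3, 69.1, 60.1 and 45.2 in M-BM. S-BM did not overlap any other group, whereas Pa, Lat and M-BM overlapped one another. In reads, S-BM 1 to 4 held 83, 29, 0 and 1, and the 0 in S-BM 3 allows a level of up to 0.225. The mean was 58.4 ± 16.7 (SD, n = 4) in Lat and 58.2 ± 9.87 in M-BM, 37.3 and 37.2 times the S-BM mean of 1.56 ± 2.22, and 0.704 and 0.702 times the Pa mean of 82.9 ± 32.5 (n = 3). The log2 difference from S-BM on the log2(value + 1) scale was 4.87 ± 0.43 (SE) in Lat and 4.90 ± 0.43 in M-BM, and without S-BM 3 and S-BM 4 it was 3.94 and 3.96. Of the 50-base stretches in the CES1 transcript, 31.5% also occur in other genes, nearly all of them in the pseudogene CES1P1 (31.1%), so the level of CES1 is uncertain to that extent. The same share was 3.27% for NETO2 and 0.116% for FAM129A, and 0 for AGPAT9 and IL1RAPL1, and no other gene shares exon bases with any of the 5 by overlap. CES1P1 itself was read 10 times over the Lat libraries, 11 times over M-BM, 10 times over Pa and 0 times in S-BM.

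FAM129A, the stress-induced translation regulator, was also low in S-BM but was lower in the parental line than in Lat and M-BM. Its values were 19.7, 19.9 and 38.3 in Pa, 0.798, 1.47, 0.0750 and 0.466 in S-BM, 44.7, 44.97, 73.9 and 50.8 in Lat, and 38.5, 167, 66.8 and 50.3 in M-BM. The S-BM values, which stand for 1 to 29 reads, lay apart from all others, and M-BM 2 stood well above the other M-BM libraries. Lat averaged 53.6 ± 13.8 and M-BM 80.7 ± 58.8, which is 76.4 and 115 times the S-BM mean of 0.701 ± 0.590. Against the Pa mean of 26.0 ± 10.7 the ratios were 2.06 and 3.11, and the ranges barely parted: the lowest M-BM library was 1.00 times the highest Pa library. On the log2 scale Lat exceeded S-BM by 5.04 ± 0.37 and M-BM exceeded it by 5.41 ± 0.37. These were 4.66 and 5.04 without S-BM 3 and S-BM 4.

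NETO2, the kainate receptor subunit, was low in S-BM without being lost, and its Pa level stood between S-BM and the other groups. The libraries gave 27.7, 28.4 and 24.1 in Pa, 5.30, 7.54, 1.42 and 1.45 in S-BM, 94.2, 97.9, 70.6 and 84.2 in Lat, and 121, 76.4, 108 and 85.1 in M-BM. No group overlapped another except Lat with M-BM, and S-BM 3 and S-BM 4 were the lowest of all, at 19 and 25 reads. The Lat mean of 86.7 ± 12.2 and the M-BM mean of 97.5 ± 20.4 were 22.1 and 24.8 times the S-BM mean of 3.93 ± 3.02, and 3.25 and 3.65 times the Pa mean of 26.7 ± 2.33. The log2 differences from S-BM were 4.36 ± 0.34 in Lat and 4.52 ± 0.34 in M-BM, and 3.57 and 3.72 without S-BM 3 and S-BM 4.

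AGPAT9, the acyltransferase, had overlapping levels in Pa and S-BM and higher ones in the other groups. It was read at 7.92, 8.55 and 4.89 in Pa, 14.4, 4.96, 7.20 and 6.75 in S-BM, 82.1, 85.9, 103 and 85.8 in Lat, and 60.9, 49.5, 100.2 and 80.1 in M-BM. The Pa and S-BM ranges overlapped, as did Lat and M-BM, and these pairs stood apart from each other. The Lat mean of 89.2 ± 9.42 was 10.7 times the S-BM mean of 8.33 ± 4.17 and 12.5 times the Pa mean of 7.12 ± 1.96. In M-BM the mean of 72.6 ± 22.3 was 8.72 and 10.2 times those means. Its log2 difference from S-BM was 3.36 ± 0.25 in Lat and 3.02 ± 0.25 in M-BM, and 3.23 and 2.89 without S-BM 3 and S-BM 4.

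IL1RAPL1, the synaptic receptor of the interleukin 1 family, was read at most 2 times in a Pa library and was lowest there, then in S-BM, then in Lat, and highest in M-BM. The values were 0.133, 0.0628 and 0 in Pa, 3.08, 0.253, 1.2 and 0.931 in S-BM, 18.6, 18.3, 13.9 and 19.9 in Lat, and 32.2, 31.9, 93.9 and 67.1 in M-BM. No 2 groups overlapped, and the M-BM libraries fell into a lower pair (1 and 2) and a higher pair (3 and 4). Pa averaged 0.0653 ± 0.0666, S-BM 1.37 ± 1.21, Lat 17.7 ± 2.64 and M-BM 56.3 ± 30.0. Lat was 13.0 times and M-BM 41.2 times the S-BM mean. No fold is given against Pa, where 0 to 2 reads were found in each library. The log2 difference from S-BM was 3.10 ± 0.36 in Lat and 4.58 ± 0.36 in M-BM, and 3.04 and 4.51 without S-BM 3 and S-BM 4. Leaving those libraries out moved IL1RAPL1 least of the 5 genes and CES1 most.

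All 5 genes passed the filter of a value of at least 10 in at least 4 of the 12 S-BM, Lat and M-BM libraries, but they did so through Lat and M-BM. Each was at 10 or more in all 8 of those libraries, and in S-BM only AGPAT9 reached 10, in S-BM 1. Among 9646 tested genes ordered by their log2 difference from S-BM, FAM129A ranked 3, CES1 4, NETO2 7, AGPAT9 26 and IL1RAPL1 34 in Lat. In M-BM the ranks were 3, 5, 8, 33 and 7 in the same order. These comparisons share the S-BM libraries. Over all tested genes 30.2% were called higher and 29.4% lower in Lat than in S-BM, and 26.9% and 25.8% in M-BM than in S-BM, at an adjusted p under 0.05 with limma; a call alone in either contrast was therefore common, and nothing is read from it for the members.

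Levels at which every Lat and every M-BM library was at least 4-fold above every S-BM library were found for 38 of 9646 tested genes (0.394%), among them CES1, FAM129A, NETO2 and IL1RAPL1. S-BM values under the level of 3 reads were set to it, and the 4-fold limit was chosen after the values were seen. AGPAT9 fell just outside, since M-BM 2, its lowest library there, was 3.43 times S-BM 1. Of the 38 genes, 3 also had every Pa library at least 4-fold above every S-BM library: CES1, FAM129A and the zinc finger gene ZNF43. NETO2 missed that limit, with its lowest Pa library 3.19 times its highest S-BM library. A further 24 genes, with IL1RAPL1 among them, had every Pa library at least 4-fold below every Lat and M-BM library, and the remaining 11, NETO2 included, met neither condition.

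**Figure D2:**
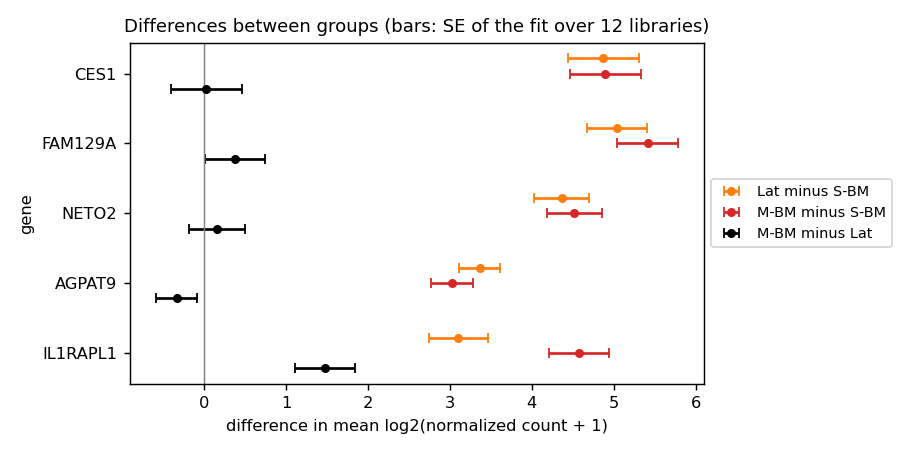
Difference between groups in mean log2(normalized count + 1) for each of the 5 genes, with bars of 1 SE from the fit over 12 libraries. The differences of Lat and M-BM from S-BM lie between 3.02 and 5.41, and those of M-BM from Lat lie between -0.34 and 1.47, with IL1RAPL1 the highest.

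The comparison of M-BM with Lat asks how cells from metachronous metastases differ from latent cells. It was not named in the selection, but the choice of genes by their gain in either group touches it, since a high value in M-BM helped a gene to be chosen. No member passed the limma test here. In this contrast 0.0933% of the 9646 genes were called higher and 0.0518% lower in M-BM. CES1 differed by 0.02 on the log2 scale (95% interval -0.90 to 0.95, adjusted p = 0.992 with limma), and NETO2 by 0.16 (-0.57 to 0.88, adjusted p = 0.905 with limma). FAM129A differed by 0.38 (-0.42 to 1.17, adjusted p = 0.749 with limma), a difference that was -0.0509 without M-BM 2. For AGPAT9 the difference was -0.34 (-0.88 to 0.21, adjusted p = 0.671 with limma), and the ranges overlapped. These intervals leave room for differences in either direction for all 4 genes.

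IL1RAPL1 was the member with the largest difference between M-BM and Lat. Every M-BM library exceeded every Lat library, the lowest M-BM value being 1.60 times the highest Lat value. How many of all tested genes were separated in this way was not counted, so nothing is read from the separation. The log2 difference was 1.47 ± 0.36 (95% interval 0.69 to 2.25, unadjusted), a 2.78-fold difference, which ranked 12 of 9646 genes from the highest. It did not pass after adjustment over all tested genes (adjusted p = 0.164 with limma). An exact two-sided permutation test of the single gene over 4 against 4 libraries gave p = 0.0286, the smallest that such a design can give, unadjusted over the 5 members, for a gene whose selection drew on its M-BM values. Exact permutation p-values were 0.886 for CES1, 0.6 for FAM129A, 0.4 for NETO2 and 0.2 for AGPAT9.

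Among the relatives of CES1, the only tested one did not share its pattern. CES2, the other main human carboxylesterase, fell from 58.4 ± 3.09 in S-BM to 30.4 ± 1.77 in Lat and 36.3 ± 2.34 in M-BM, with log2 differences of -0.92 and -0.67 (adjusted p = 1.32e-06 and 3.02e-05 with limma). Its 4 values in Lat (29.4, 29.3, 29.8 and 33.1) lay close to those of Pa (31.2, 28.7 and 29.3), and none overlapped S-BM. CES3, CES4A, CES5A and CES1P1 were too low to be tested, with no library of them above 3.73. The few reads of CES1P1, 0 in S-BM and 10, 11 and 10 in Lat, M-BM and Pa, went in the direction of CES1, whose sequence it shares in part. In a wider list of 24 enzymes of xenobiotic ester and drug metabolism, 2 of 16 tested genes were called higher and 9 lower in Lat than in S-BM, and 2 and 8 in M-BM, beside 30.2% and 29.4% of all tested genes in Lat and 26.9% and 25.8% in M-BM. The list's median log2 difference was -1.02 in Lat and -0.55 in M-BM, while that over all tested genes was 0.01 in both. The calls were 2 and 12 in Lat and 3 and 9 in M-BM without S-BM 3 and S-BM 4. EPHX2, a gene of this list below the filter, was lowest in S-BM without overlap, as CES1 was. It was at 0.342 to 0.658 in S-BM, 1.83 to 2.85 in Lat, 1.28 to 3.02 in M-BM and 3.73 to 6.37 in Pa. How many genes below the filter separated from S-BM without overlap was not counted. Nothing is therefore read from such a separation for EPHX2 or for the other untested genes of these lists.

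Among the called enzymes, AKR1B10, an aldo-keto reductase, had the largest fall in Lat but not in M-BM, from 71.7 ± 22.3 in S-BM to 11.3 ± 4.79 in Lat and 37.0 ± 7.07 in M-BM. Its log2 differences were -2.64 in Lat and -0.91 in M-BM (adjusted p = 6.42e-06 and 0.0196 with limma), the latter losing its call without S-BM 2 or without M-BM 2. AKR1B10 was also the 1 gene of all 67 tested list genes that was called between M-BM and Lat, higher by 1.73 (adjusted p = 0.0343 with limma), a call that was lost in 11 of 19 alternatives, among them the absence of S-BM 3 and S-BM 4 (limma adjusted p = 0.0644). In M-BM the fall of CYP1B1, a cytochrome P450, was larger, from 112.2 ± 19.8 in S-BM to 55.1 ± 20.1 in Lat and 37.7 ± 18.2 in M-BM (log2 -1.06 and -1.63). The glucuronidation genes UGT1A6 and UGT1A1 fell together in both groups, but they share exons, so their reads cannot be separated. Both are counted among the lower calls of this list, although they are not separate observations. CYP4F11, a fatty acid hydroxylase, went the other way, from 14.3 ± 0.788 in S-BM to 22.3 ± 4.15 in Lat and 27.9 ± 2.80 in M-BM (log2 0.59 and 0.92). GSTP1, a glutathione transferase, was listed at 0 in all 15 libraries.

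FAM129B, the paralog of FAM129A, rose as well, but to a much smaller degree. From 313 ± 19.1 in S-BM it went to 522 ± 76.3 in Lat and to 540 ± 75.3 in M-BM, with log2 differences of 0.73 and 0.77 (adjusted p = 0.000155 and 0.000137 with limma). Its Pa mean was 381 ± 12.02, above all S-BM libraries and below all Lat and M-BM libraries. FAM129C held 13 to 20 reads per group and was not tested.

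FAM129A is induced with the integrated stress response, in which kinases phosphorylate the initiation factor eIF2 and the transcription factor ATF4 is translated. Of 20 tested genes of that response, 13 rose and 3 fell in Lat, and 13 rose and 2 fell in M-BM, beside the shares of 30.2% and 26.9% of all tested genes called higher. The list's median log2 difference was 0.59 in Lat and 0.50 in M-BM. Without S-BM 3 and S-BM 4, 12 rose and 3 fell in Lat, and 11 rose and 2 fell in M-BM. STC2, a secreted glycoprotein induced by ATF4, rose from 84.1 ± 27.2 to 405 ± 53.8 and 340 ± 80.3 (log2 2.31 and 2.04). DDIT3, the transcription factor CHOP, went from 17.1 ± 4.38 to 59.3 ± 11.8 and 51.6 ± 4.04 (1.75 and 1.57). PPP1R15A, which directs dephosphorylation of eIF2, went from 131 ± 28.5 to 423 ± 29.1 and 434 ± 68.2 (1.71 and 1.73). ATF4 itself rose from 312 ± 28.7 to 578 ± 33.9 and 548 ± 33.8 (0.89 and 0.81).

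In the parental line these stress response genes differed among themselves. The Pa mean of FAM129A was 37.0 times that of S-BM, while Pa held STC2 at 73.2 ± 11.2, within the S-BM range, and DDIT3 at 12.4 ± 0.707, PPP1R15A at 67.6 ± 2.38 and ATF4 at 239.7 ± 6.68. The last 3 of these were below every S-BM library. DDIT4, a stress-induced inhibitor of the mTORC1 growth pathway named after its values were seen, was at 260 to 279 in Pa, above every S-BM library (156 to 234) and below every Lat (323 to 389) and M-BM library (333 to 557), the order found for FAM129A, and was called higher in both comparisons (log2 0.87 and 1.26). Calls against the direction of the list in Lat were VLDLR, a lipoprotein receptor (log2 -1.26), and the eIF2 kinases EIF2AK3 (-0.52) and EIF2AK1 (-0.24), the last not without Lat 3. In M-BM, VLDLR (-0.58) and EIF2AK3 (-0.42) were called lower, and both calls were lost when single libraries were left out. Some calls in the direction of the list were no firmer. Of 19 alternatives, the M-BM call was lost in 13 for ASNS, 8 for ATF3 and 4 for CEBPB, and the Lat call in 10 for EIF2AK2. For VLDLR and EIF2AK3 in M-BM these numbers were 6 and 4.

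Partners of NETO2 were barely read. Of NETO1, the 5 kainate receptor subunits and the chloride transporter SLC12A5, 6 names were in the tables and none reached the filter. GRIK3 was at 0 reads in all 4 S-BM libraries, which allows a level of up to 0.225, and at 2.47, 1.94, 1.14 and 1.33 in Lat and 0.443, 3.16, 0.681 and 0.523 in M-BM. Summed over a group, Lat held 124 reads of it, M-BM 104 and Pa 5. GRIK5 was at 0.354 to 0.524 in S-BM and 0.985 to 2.74 in Lat and M-BM together, without overlap. GRIK1 and GRIK4 held at most 4 reads in any group, and GRIK2 was at 0 to 2.18 in S-BM and 0.226 to 1.66 in the other brain groups. GRIK3 and GRIK5 were named with the rest of this small family and were not tested.

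Among the acyltransferases that share the first steps of glycerolipid synthesis with AGPAT9, 1 of 7 tested genes rose and 2 fell in each comparison with S-BM, where 30.2% and 29.4% of all tested genes were called in Lat and 26.9% and 25.8% in M-BM, shares that also stand beside the next lists of lipid genes. AGPAT5, a mitochondrial lysophosphatidate acyltransferase, rose from 57.9 ± 4.85 in S-BM to 229 ± 51.2 in Lat and 233 ± 68.0 in M-BM, with no overlap, and was at 34.6 ± 2.28 in Pa. Its log2 differences were 1.94 and 1.95 (adjusted p = 2.26e-06 and 5.18e-06 with limma). AGPAT1 fell from 46.5 ± 7.05 to 22.5 ± 2.49 and 23.3 ± 1.80 (-1.01 and -0.96), and LCLAT1, which acylates lysocardiolipin, fell from 112 ± 4.83 to 87.3 ± 8.52 and 86.2 ± 12.2 (-0.36 and -0.38). The LCLAT1 call in Lat was lost without S-BM 3 and S-BM 4 (limma adjusted p = 0.0540). The other glycerol-3-phosphate acyltransferases did not pass: in the order S-BM, Lat, M-BM, GPAM averaged 35.4 ± 4.36, 41.2 ± 1.89 and 39.2 ± 1.04, and AGPAT6 85.1 ± 4.24, 86.0 ± 10.9 and 64.0 ± 19.8. AGPAT2 and AGPAT3 also did not pass. AGPAT4, below the filter, averaged 8.28 ± 2.04 in the parental line, and then S-BM 1.52 ± 0.737, Lat 5.85 ± 0.600 and M-BM 5.83 ± 1.07, so its S-BM libraries were lower than all others, the order found for CES1.

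Later steps of triglyceride synthesis and storage moved in both directions. Of 6 tested genes after the acyltransferases, 2 rose and 2 fell in Lat and 1 rose and 2 fell in M-BM. LPIN1, a phosphatidate phosphatase, rose from 30.8 ± 3.41 to 53.2 ± 5.12 and 60.2 ± 5.76 (0.77 and 0.95). DGAT2, which makes triglyceride from diglyceride, rose in Lat from 4.63 ± 1.04 to 13.9 ± 3.90 (1.39) and was at 6.54 ± 0.898 in M-BM (0.43, adjusted p = 0.0744 with limma). Of 3 tested lipid droplet coat genes, PLIN3 rose (0.33 and 0.25) and HILPDA fell (-0.69 and -0.47), and both M-BM calls were lost in several of the alternatives. Among 6 tested genes of neutral lipid hydrolysis, 2 rose and 3 fell in each comparison. Without S-BM 3 and S-BM 4, 2 rose and 2 fell in each. The widest difference was in LIPA, the lysosomal acid lipase, which fell from 90.4 ± 11.7 to 36.5 ± 9.03 and 44.5 ± 6.68 (-1.31 and -1.01).

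The other receptors of the family that IL1RAPL1 belongs to moved in both directions, 1 of 3 tested genes being called higher and 2 lower in each comparison, beside 30.2% and 29.4% of all tested genes in Lat and 26.9% and 25.8% in M-BM. IL1R1, the interleukin 1 receptor, fell from 51.3 ± 17.7 in S-BM to 20.1 ± 3.15 in Lat and 17.2 ± 4.54 in M-BM (log2 -1.27 and -1.50, adjusted p = 0.000159 and 6.20e-05 with limma). Its accessory chain IL1RAP fell from 73.2 ± 11.8 to 25.3 ± 1.39 and 34.7 ± 11.1 (-1.49 and -1.10). IL1RL1, the receptor for interleukin 33, was the other tested receptor and rose, from 2.72 ± 2.05 to 25.2 ± 18.8 in Lat (2.76) and 8.44 ± 4.78 in M-BM (1.34). Its Lat mean rests in part on Lat 3 at 53.3, the other Lat libraries being at 15.5 to 16.1, and its M-BM call was lost in 10 of 19 alternatives, S-BM 3 and S-BM 4 left out among them.

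IL1RAPL2, the paralog of IL1RAPL1, had the reverse pattern. It was at 8.72, 8.23 and 9.56 in Pa and 7.24, 8.70, 6.75 and 6.34 in S-BM, and at 0.616, 0.554, 0.311 and 0.976 in Lat and 1.28, 0.361, 0.487 and 1.71 in M-BM. Both low groups lay wholly below both high groups, but no library reached 10 and the gene was not tested. IL18R1, also below the filter, was at 0.150 to 0.399 in S-BM, 3.99 to 11.3 in Lat and 1.85 to 4.38 in M-BM. Among the ligands, IL18 fell from 78.4 ± 21.9 to 44.7 ± 8.62 and 42.0 ± 9.20 (-0.77 and -0.87), its Lat call being lost without S-BM 3 and S-BM 4 (limma adjusted p = 0.0858). Among ligand genes below the filter and so not tested, IL1B, interleukin 1 beta, lay between 0.0506 and 0.525 in the S-BM libraries, between 1.22 and 5.49 in those of Lat and between 2.46 and 5.84 in those of M-BM. For IL36RN, an interleukin 36 receptor antagonist, the same ranges were 2.62 to 3.74, 4.97 to 7.11 and 4.90 to 9.85, and for both genes Lat and M-BM lay wholly above S-BM. IL1RN, the natural receptor antagonist, did not reach the filter and was at 5.57 to 28.5 in S-BM, 1.14 to 3.35 in Lat and 1.95 to 5.42 in M-BM.

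IL1RAPL1 binds the receptor phosphatase PTPRD across the synapse. PTPRD was at 0 reads in all Pa and S-BM libraries and at 30 reads in Lat and 30 in M-BM over 4 libraries each, so it was close to unread. Of 5 tested genes among that phosphatase's family and other synaptic adhesion proteins, none rose, 5 fell in Lat and 4 fell in M-BM, beside 29.4% and 25.8% of all tested genes. In the absence of S-BM 3 and S-BM 4, 4 fell in each. The related phosphatase PTPRF fell from 350 ± 12.4 to 182 ± 21.4 and 221 ± 16.1 (-0.95 and -0.66), PTPRS from 96.5 ± 15.9 to 63.7 ± 6.86 and 64.9 ± 5.19 (-0.58 and -0.55), and the neuroligin NLGN2 from 13.1 ± 4.12 to 5.42 ± 0.963 and 5.40 ± 0.517 (-1.11 and -1.10). Below the filter, the neuroligin NLGN1 held 0 reads in Pa and 2 over the S-BM libraries, but 68 over those of Lat and 38 over those of M-BM, and every Lat and M-BM library exceeded every S-BM library.

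**Figure D3:**
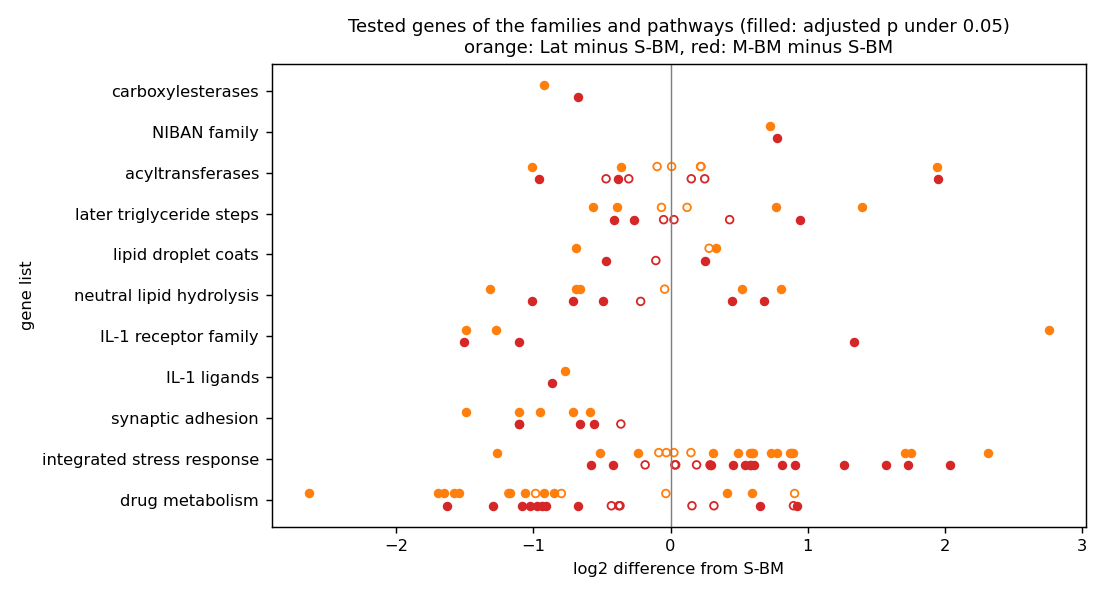
Log2 difference from S-BM of each tested gene in the lists of relatives and pathways, 1 point per gene and comparison, orange for Lat and red for M-BM; filled points had an adjusted p under 0.05. Points of the stress response list lie mostly above 0 (13 of 20 called higher in each group) and those of the drug metabolism list mostly below it.

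Over all lists, 67 genes were tested, of which 23 were called higher and 27 lower in Lat and 22 and 24 in M-BM. Among all tested genes the shares were 30.2% and 29.4% in Lat and 26.9% and 25.8% in M-BM. The median log2 difference was -0.04 in Lat and -0.05 in M-BM, beside 0.01 over all tested genes in each.

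The genes beside each member on its chromosome, 5 tested genes on each side, did not share the size of its gain. Over 50 neighbours, 16 were called higher and 11 lower in Lat, and 18 and 5 in M-BM, where 30.2% and 29.4% of all tested genes were called in Lat and 26.9% and 25.8% in M-BM. Their log2 differences lay between -1.95 and 1.86. Without S-BM 3 and S-BM 4 the counts were 16 and 11 in Lat and 16 and 10 in M-BM. Of the 10 neighbours of CES1, 1 was called lower in Lat and 0 in M-BM. Without S-BM 3 and S-BM 4, 2 were called lower in each. With or without those libraries, 5 were called higher in each group. Of these, 1 rose by more than 2-fold, MMP2, a matrix metalloproteinase 0.324 megabases away, which went from 14.6 ± 9.21 to 30.9 ± 7.31 and 48.2 ± 12.2 (log2 1.25 and 1.86, and 2.07 and 2.68 without S-BM 3 and S-BM 4).

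Neighbours of NETO2 were called higher in 4 of 10 cases in Lat and 6 of 10 in M-BM, and none was called lower. GPT2, an alanine transaminase, rose from 95.4 ± 15.1 to 200.4 ± 51.8 and 233 ± 31.5 (1.04 and 1.28), and ORC6, a subunit of the origin recognition complex, from 17.9 ± 1.67 to 44.1 ± 1.51 and 42.4 ± 5.07 (1.26 and 1.20). Beside FAM129A, 3 were called higher and 2 lower in Lat, with TSEN15, a subunit of the tRNA splicing endonuclease, the 1 gene at 2-fold (1.01). Around IL1RAPL1, 4 were called higher and 1 lower in Lat and 5 and 0 in M-BM, and none rose by 2-fold. These genes are distant: the nearest starts lie 3.89 megabases before (POLA1) and 2.24 after (TAB3) the start of IL1RAPL1, and the farthest 9.30 after it (SYTL5). Without S-BM 3 and S-BM 4, the FAM129A neighbours had 1 higher and 3 lower call in Lat and 1 and 4 in M-BM, those of NETO2 4 higher calls in each, and those of IL1RAPL1 6 higher calls in each.

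None of the 10 neighbours of AGPAT9 was called higher, and 7 were called lower in Lat and 4 in M-BM, beside 29.4% and 25.8% of all tested genes. Their median log2 difference was -0.72 and -0.48. Without S-BM 3 and S-BM 4, 6 were called lower in Lat and 4 in M-BM, with medians of -0.57 and -0.26. PTPN13, a protein tyrosine phosphatase 3.06 megabases away, fell from 266 ± 23.3 to 70.9 ± 21.9 and 106 ± 29.5 (-1.95 and -1.35), and AFF1, a transcription elongation factor, from 96.3 ± 17.9 to 37.7 ± 10.8 and 45.5 ± 12.1 (-1.35 and -1.08). These genes were named after their values were seen.

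**Figure D4:**
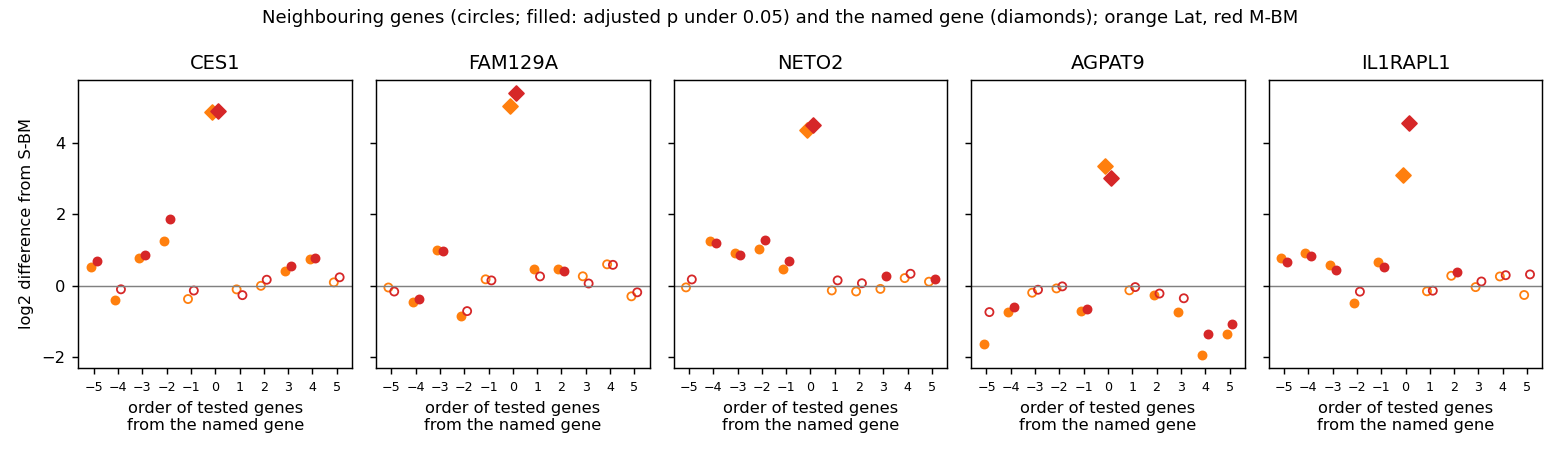
Log2 difference from S-BM of the 5 tested genes on each side of each member (circles, filled where the adjusted p was under 0.05) and of the member itself (diamonds), in chromosome order, orange for Lat and red for M-BM. Each member stands above all of its neighbours, which lie between -1.95 and 1.86.

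The 12 S-BM, Lat and M-BM values of each member were compared with those of every other tested gene, each gene centred on its own mean of log2(value + 1), by the root mean square difference. This measure ranks likeness of pattern and has no test. The members were selected on these same values, so their nearness to one another is in part set by that choice. CES1 and NETO2 were most alike among the members: NETO2 was the nearest of all genes to CES1, at 0.487, and FAM129A ranked 3 from it, at 0.737. AGPAT9 and IL1RAPL1 were less alike, at 0.843, with IL1RAPL1 at rank 102 from AGPAT9. Pairs of either gene with CES1, FAM129A or NETO2 were farther apart, at 0.863 to 1.24, yet ranked 21 to 32 from the latter genes. A rank is therefore not comparable between genes.

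Nearest to FAM129A was ZNF83 (0.693), a zinc finger gene that was also the second nearest to CES1 (0.719). ZNF83 was at 0.171, 0.202, 0 and 0 in S-BM, 17.5, 19.7, 23.7 and 15.8 in Lat and 16.002, 19.6, 24.1 and 18.2 in M-BM. Its Pa values were 0.533, 1.13 and 0.330, so it did not share the parental level of CES1 and FAM129A. HERC5, an interferon-induced ubiquitin-like protein ligase, was nearest to NETO2 (0.435), ahead of CES1, ZNF83 (0.501) and FAM92A1 (0.552). Pa averaged 6.91 ± 2.41, S-BM 1.43 ± 0.929, Lat 37.1 ± 6.29 and M-BM 41.2 ± 5.08, the same order as NETO2. FAM92A1 was at 0.851 ± 0.483, 0.104 ± 0.143, 14.0 ± 1.28 and 13.4 ± 1.64 in those groups.

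FOSL1, an AP-1 transcription factor subunit, was nearest to AGPAT9 (0.307). It was at 3.46, 3.90 and 3.57 in Pa, 21.5, 6.88, 19.6 and 19.96 in S-BM, 178, 179, 247 and 174 in Lat and 152, 93.0, 188 and 133 in M-BM. Lat 3 was the highest Lat library and M-BM 2 the lowest M-BM library for both genes. ZNF43 followed (0.336), then LRAT, the lecithin retinol acyltransferase (0.394). In the order Pa, S-BM, Lat, M-BM, LRAT averaged 1.54 ± 0.208, 0.693 ± 0.579, 15.4 ± 3.399 and 12.2 ± 5.20, and MYEOV (0.418) averaged 99.0 ± 20.7, 213 ± 84.5, 1293 ± 175 and 1086 ± 153.

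For IL1RAPL1 the nearest genes were GEM, a small GTPase (0.714), RYR2, a calcium release channel (0.721), TFCP2L1, a transcription factor (0.747), and CLGN, a chaperone (0.762). Their means all had the order of groups found for IL1RAPL1, but in each gene the Lat and M-BM ranges overlapped. From Pa through S-BM and Lat to M-BM, TFCP2L1 averaged 0.225 ± 0.0391, 0.659 ± 0.187, 8.22 ± 3.13 and 22.9 ± 10.1. GEM was at 0.499 ± 0.210, 2.87 ± 0.599, 33.3 ± 5.63 and 40.8 ± 17.1 in those groups, and RYR2 at 0.149 ± 0.158, 0.251 ± 0.0620, 10.4 ± 3.91 and 14.6 ± 6.36. CLGN, at 0.268 ± 0.0584, 0.695 ± 0.268, 22.3 ± 7.30 and 32.0 ± 13.4, ranked 3 from FAM129A as well (0.728). All of these genes were low in Pa as IL1RAPL1 was.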

How the data were processed

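RNA from 15 HCC1954 libraries was read after TruSeq RNA v2 preparation, per the labels' protocols, which leaves the strand unmarked. Bowtie 0.12.2 and GRCh38 are named in the submitters' processing notes; how reads were counted, with which annotation, and how counts were scaled is not given in the sources used here. Signal values as deposited are normalized counts made by the authors, 1 per gene and library, with S-BM, Lat and M-BM in 1 table and Pa in another. All values were whole multiples of 1 step per library within 0.05 reads (100% of values), so reads were recovered from them. Of 19845 names, 27 had been turned into dates, 2 of them repeated; all were kept as separate rows.

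Log2(value + 1) of the 12 S-BM, Lat and M-BM libraries was fitted with limma 3.58.1 in R 4.3.3, with 3 group means and a variance trend, for the 9646 genes at a value of at least 10 in at least 4 libraries. Two-sided p-values were adjusted by Benjamini-Hochberg over all tested genes, with a threshold of 0.05. For levels only, Pa was scaled by 1.0062, the median over 8841 genes of the ratio to the other groups. The scripts were tested on simulated data. The members and gene lists were chosen with earlier results of these data known. Named genes were the members, the 4 tested genes most alike to each, all genes of lists with fewer than 10 entries or up to 4 called genes of longer ones, and neighbours called at 2-fold or more in the member's direction; others were named after their values were seen.

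Alternatives were pseudocounts of 0.25 and 5, a filter at 1 or none, quantile normalization, only the 2 groups compared, a replicate block, edgeR 4.0.16 and DESeq2 1.42.0 on recovered reads, and each library left out. After the data were seen, 2 were added: leaving out S-BM 3 and S-BM 4, and averaging each of the pairs of most similar libraries (those S-BM libraries, and Lat 1 and Lat 2). Replicate numbers were not used to pair libraries in the main fit. Residuals of same-numbered libraries of different groups correlated at -0.272 to 0.319, 4 of 12 above 0.1. Those of differently numbered libraries correlated at -0.305 to 0.322, 7 of 36 above 0.1, so no clear pairing was seen. Positions and promoters come from RefSeq on GRCh38.p14, where 17542 names matched by current and 1527 by older symbols, and transcripts from GENCODE 29 were used to find 50-base stretches shared between genes.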

Additional observations from a re-analysis of the deposited data

Results flagged for a closer look

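In 37 genes that are members, their nearest genes by pattern or relatives, 111 groups of 4 libraries were searched for a library far from its group, and 12 had one; chance flags about 1 in 20 groups. None of the 5 members was among them. The chance rate assumes independent libraries, but some libraries were close to each other. Lat 1, Lat 2 and Lat 4 differed by 3.88 to 13.3 times counting noise, and Lat 3 differed from them by 36.7 to 42.1 times. Lat 3 stood apart for FOSL1 at 246.5 (the others at 173.7 to 179.1), GRIK5 at 2.74 (1.19 to 1.34), AGPAT6 at 102.3 (79.4 to 81.7), AGPAT3 at 64.3 (87.3 to 90.6), IL1R2 at 8.59 (1.59 to 2.09) and IL1RL1 at 53.3 (15.5 to 16.1). M-BM 2 stood apart for CES3 at 1.36 (0.345 to 0.438), GRIK3 at 3.16 (0.443 to 0.681) and AGPAT6 at 34.6 (70.9 to 77.3). S-BM 2 did so for FOSL1 at 6.88 (19.6 to 21.5) and GRIK2 at 2.18 (0 to 0.175), and Lat 4 for CES2 at 33.1 (29.4 to 29.8).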

How the results depend on the processing

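The differences of the 5 members from S-BM were positive in every alternative run, and their sizes depended on the scale because S-BM values are near 0. For Lat and M-BM in turn, CES1 gave 5.98 and 6.003 with a pseudocount of 0.25, 3.29 and 3.31 with 5, and 3.94 and 3.96 without S-BM 3 and S-BM 4. FAM129A gave 6.03 and 6.41 with 0.25, 3.34 and 3.70 with 5, 6.15 and 6.73 with edgeR and 6.23 and 6.81 with DESeq2, and in Lat 4.53 with quantile normalization. NETO2 gave 3.41 and 3.56 with 5, and 3.57 and 3.72 without S-BM 3 and S-BM 4, and AGPAT9 in Lat gave 2.86 with 5. IL1RAPL1 gave 1.84 and 3.15 with 5, 3.70 and 5.36 with edgeR and 3.70 and 5.35 with DESeq2, and in Lat 3.77 with 0.25. Between M-BM and Lat, CES1 changed sign with edgeR (-0.00966) and DESeq2 (-0.0152) and ranged from -0.16 to 0.18 when single libraries were left out, and FAM129A ranged from -0.0509 to 0.65. The difference of IL1RAPL1, 1.47, had an adjusted p of up to 0.499 over the alternatives, and its exact permutation p is unadjusted and cannot be set beside those. Family and pathway genes called between M-BM and Lat, 1 in the limma fit, were 2 with a filter at 1, 4 with DESeq2, and 0 with only the 2 groups in the fit, with edgeR, without S-BM 3 and S-BM 4 and with the closest pairs averaged, and 0 to 1 when single libraries were left out. With the replicate block the IL1RAPL1 difference was 1.47 (adjusted p = 0.165 with limma), and the block changed no call of a member. Depth limits values below 0.225, the level of 3 reads in the shallowest library.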
